A study of Mus musculus with 5 samples.

Results

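The MHC class I heavy chain genes of the mouse H2 region were followed through whole lungs of Cldn4 knockout and wild type mice with and without injurious ventilation. Members were all genes of the deposited tables whose symbol starts with H2-K, H2-D1, H2-L, H2-Bl, H2-Q, H2-T or H2-M, with H2-Ke2 and H2-Ke6 left out, plus the predicted genes Gm11127, Gm7030 and Gm8909. They came to 31 of 21590 genes. The symbols alone decide membership, but the family was chosen by the log2 fold changes of H2-K2, H2-T3, H2-M2 and H2-Bl, which were among the largest rises of KO lungs over WT lungs. The knockout values are therefore a description and support nothing by themselves.

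The 5 groups were Cldn4 KO lungs without ventilation (KO_noVILI), Cldn4 KO lungs ventilated for 2 h at 40 cmH2O with injury close to that of wild type (KO_VILIlow) or with more injury than wild type (KO_VILIhigh), WT lungs ventilated in the same way (WT_VILI) and WT lungs without ventilation (WT_noVILI). VILI stands for ventilator-induced lung injury, and claudin-4, the product of Cldn4, is a tight junction protein of epithelium. All 5 groups have a mixed background of 129S6, C57BL/6 and BALB/c, strains that do not carry the same H2 haplotype, and no file used here gives the haplotype of any animal. Both ventilated knockout groups were formed by the injury that the animals showed. The design text speaks of duplicates, ages are not given, and the files are 4 tables of the authors' own comparisons with no value per library, so no spread between animals can be given.

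Class I molecules are heavy chains that pair with beta-2-microglobulin and show peptides from inside the cell to T cells and natural killer cells. The classical chains, H2-K1 and H2-D1 here, are made by nearly all nucleated cells and rise with interferon and NF-kB signalling, while the nonclassical chains of the Q, T and M regions are made in fewer tissues and serve narrower tasks, such as binding natural killer receptors or presenting bacterial peptides. In lung, endothelium, epithelium and immune cells all carry class I molecules. In bulk tissue, fewer cells of a type and less RNA per cell cannot be told apart.

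The summed reads behind each group could be recovered from the tables. For all 21590 genes of each table, fold change and mean abundance gave whole numbers of reads for both groups, within 0.00108 of a whole number at most, when the table was taken to hold 4 libraries of equal size. These libraries came to 8405293 reads each in the table of KO_noVILI, 6383322 in that of WT_VILI, 5923406 in that of KO_VILIlow and 5170325 in that of KO_VILIhigh. The 2 groups of a table had nearly equal totals, and the values of 1 group differ between tables, so these are reads after a normalization that the sources do not describe. Below, "reads" are these numbers summed over the libraries of a group, and CPM (reads scaled to a common library size) is their level. Cldn4 itself had 2 reads in KO_noVILI against 150 in WT_noVILI, 0 in KO_VILIlow against 1655 in WT_VILI, and 1 in KO_VILIhigh against 1432 in WT_VILI.

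To show what the regulatory sequence of the family looks like, the 250 bases before the annotated start are given for 5 members: H2-K1 and H2-D1, which were called with ventilation of WT lungs and in no knockout comparison, and H2-Q10, Gm11127 and H2-M2, which stood higher in every knockout group. The sequences are those of RefSeq on GRCm38.p6, the C57BL/6J reference, written from 5′ to 3′ on the strand of the gene. Capitals mark 3 motifs searched on both strands: GAANNGAAA, a core of interferon response elements, the palindromic NF-kB consensus, and TGACGC, the X2 box bound with the class I activator complex.
H2-K1 (chr17:34000348-34000597, minus strand): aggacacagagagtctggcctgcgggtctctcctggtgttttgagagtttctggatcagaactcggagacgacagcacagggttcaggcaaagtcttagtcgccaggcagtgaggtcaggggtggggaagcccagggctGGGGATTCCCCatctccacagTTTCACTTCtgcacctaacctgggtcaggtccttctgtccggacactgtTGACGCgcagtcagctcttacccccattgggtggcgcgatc
H2-D1 (chr17:35262844-35263093, plus strand): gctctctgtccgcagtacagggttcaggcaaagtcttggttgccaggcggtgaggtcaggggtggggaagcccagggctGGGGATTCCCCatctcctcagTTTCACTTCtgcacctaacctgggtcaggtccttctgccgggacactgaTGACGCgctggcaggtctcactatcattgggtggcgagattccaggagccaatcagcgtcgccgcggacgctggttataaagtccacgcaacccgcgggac
H2-Q10 (chr17:35469839-35470088, plus strand): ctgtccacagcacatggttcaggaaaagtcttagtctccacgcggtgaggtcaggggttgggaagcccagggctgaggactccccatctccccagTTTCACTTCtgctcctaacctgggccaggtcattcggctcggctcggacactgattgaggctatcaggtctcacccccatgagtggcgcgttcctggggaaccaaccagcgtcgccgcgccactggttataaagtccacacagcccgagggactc
Gm11127 (chr17:36058372-36058621, minus strand): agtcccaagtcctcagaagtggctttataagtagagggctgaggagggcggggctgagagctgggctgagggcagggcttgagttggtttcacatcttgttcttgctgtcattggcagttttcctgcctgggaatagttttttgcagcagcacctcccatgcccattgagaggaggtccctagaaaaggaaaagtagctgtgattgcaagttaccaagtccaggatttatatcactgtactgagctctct
H2-M2 (chr17:37483555-37483804, minus strand): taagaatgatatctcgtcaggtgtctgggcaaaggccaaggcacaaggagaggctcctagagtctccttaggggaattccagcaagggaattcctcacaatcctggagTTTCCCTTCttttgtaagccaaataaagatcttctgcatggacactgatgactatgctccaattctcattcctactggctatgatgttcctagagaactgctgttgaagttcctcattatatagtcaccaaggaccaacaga

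H2-K1 and H2-D1 held all 3 motifs in the same order, with the NF-kB and interferon motifs close together. H2-Q10 and H2-M2 held only the interferon motif, and Gm11127 held none. Windows were available for 24 of the 31 members. The NF-kB motif stood in 3 of them, H2-K1, H2-D1 and H2-Q6, and in 0.0518% of the windows of all 27025 genes. The interferon motif stood in 7 members, H2-K1, H2-D1, H2-Q6, H2-Q7, H2-Q10, H2-M2 and H2-M3, and in 7.3% of all genes. The X2 box stood in 3 members, H2-K1, H2-D1 and H2-M3, and in 6.93% of all genes. A missing motif says only that these exact letters are not in this window of the reference strain. Other forms of the same elements were not searched.

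H2-D1 and H2-K1 supplied most class I reads in every group. Per kilobase of exon (GENCODE lengths, available for 29 members), H2-D1 reached 426 CPM per kb in KO_noVILI and 330 in WT_noVILI, and H2-K1 reached 268 in KO_noVILI and 273 in WT_noVILI. The next members, H2-Q6, H2-T24 and H2-T23, lay between 37.7 and 49.4 CPM per kb in WT_noVILI. All values per kb of WT_noVILI come from its comparison with WT_VILI, which was normalized separately from that with KO_noVILI. Before scaling to length, H2-K1 in WT_noVILI stood at 801 CPM there and at 826 CPM in the comparison with KO_noVILI. H2-D1 stood at 851 and 860 CPM. The sums given next use the comparison with KO_noVILI. The order below the classical genes was not the same in the knockout: H2-K2 had rank 3 with 108 CPM per kb in KO_noVILI and rank 10 with 5.72 in WT_noVILI. All 31 members together came to 3213 CPM in KO_noVILI against 2271 in WT_noVILI, and members other than H2-K1 and H2-D1 made up 41.3% of this in KO_noVILI against 25.8% in WT_noVILI. At the other end, H2-M1, H2-M10.1, H2-M10.5, H2-M11 and H2-T9 had 0 reads in all 4 tables, and a further 4 members, H2-M9, H2-M10.3, H2-M10.4 and H2-M10.6, never had more than 5 reads. Of the M10 genes, known from vomeronasal neurons of the mouse, H2-M10.2 was the exception described below.

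**Figure D1:**
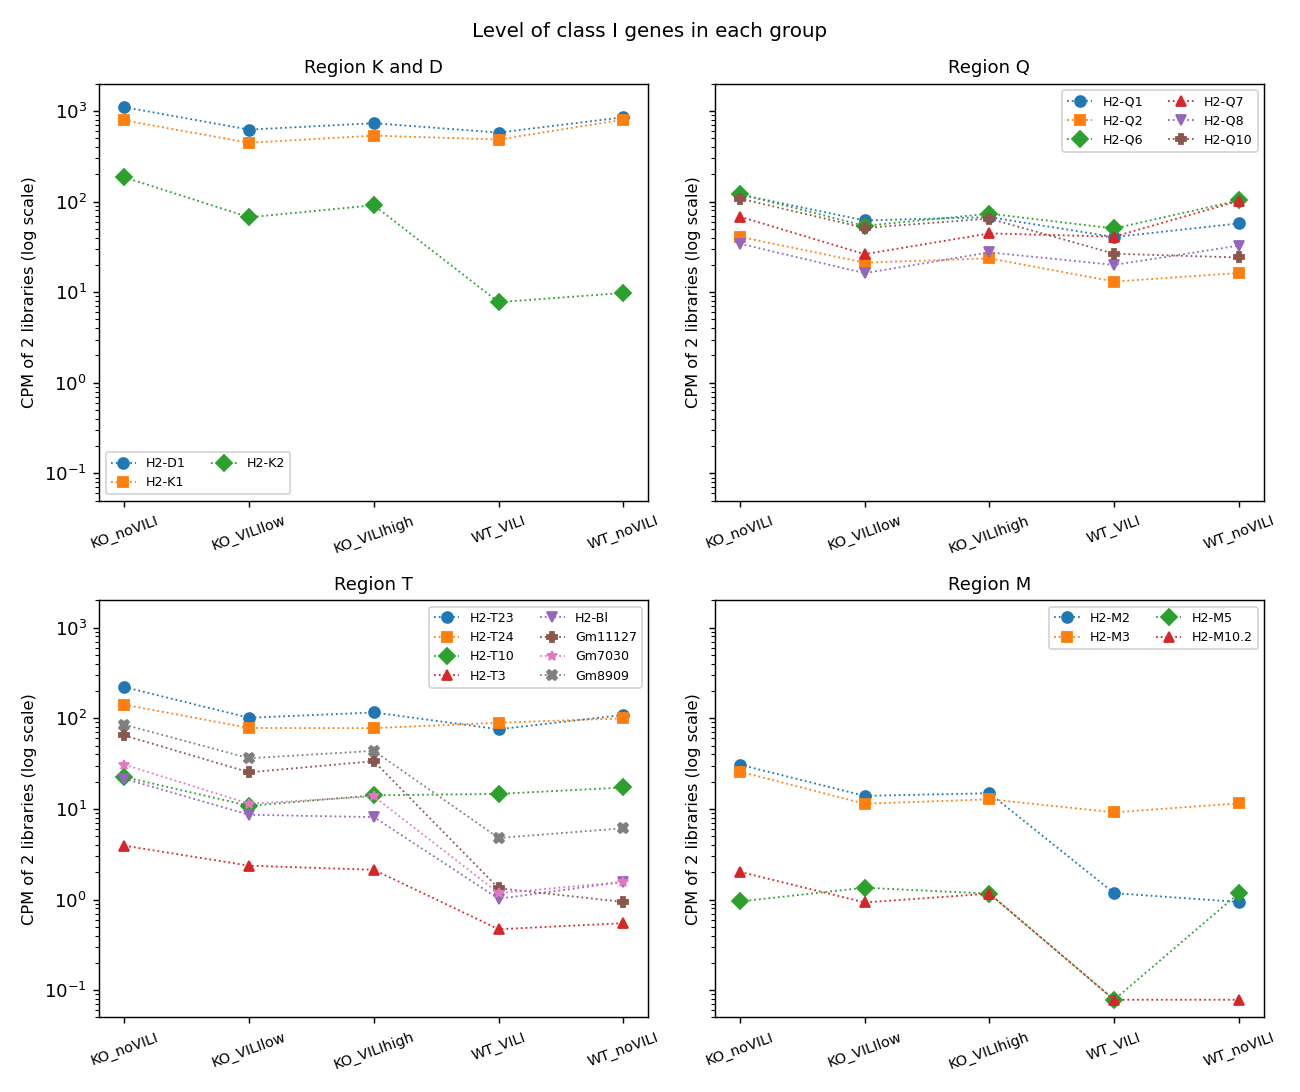
Level of class I genes in each group, in CPM of the group's libraries on a log axis, with 1 panel for each stretch of the H2 region and dotted lines joining the values of a gene. Values come from tables that were normalized separately. H2-K2, Gm11127, Gm7030, Gm8909, H2-Bl and H2-M2 sit far higher in the 3 knockout groups than in both wild type groups, while H2-K1 and H2-D1 stay between 444 and 1099 CPM throughout.

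In unventilated lungs, 14 of the 31 class I genes were higher in KO_noVILI than in WT_noVILI at an adjusted p under 0.05 in the authors' deposited table, none was lower, and the other 17 were not called. Of all genes there, 3.36% were called, 1.45% as higher and 1.92% as lower. The median log2 fold change over all 31 members was 1.05, and over all genes it was 0. Since the family was taken up for these values, the count is a description.

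The steepest differences were in genes with few reads in wild type. Gm11127, a predicted class I gene between H2-T22 and H2-Bl, had 1087 reads in KO_noVILI against 14 in WT_noVILI, and a log2 fold change of 6.25 (adjusted p = 1.15e-76) in the authors' deposited table. H2-M2, at the far end of the M region, had 517 reads in KO_noVILI against 14 in WT_noVILI (log2 fold change 5.18, adjusted p = 3.44e-54 in the authors' deposited table). H2-K2, annotated as a transcribed pseudogene beside H2-K1, had 3112 reads in KO_noVILI against 162 in WT_noVILI. Its log2 fold change was 4.26 (adjusted p = 1.37e-65) in the authors' deposited table, and with 185 CPM in KO_noVILI it was the most abundant of the strongly raised members. All 3 genes had at most 162 reads in WT_noVILI and at least 517 in KO_noVILI.

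Further members of the T region were raised in the same comparison. Gm7030 had 518 reads in KO_noVILI against 26 in WT_noVILI, Gm8909 had 1428 in KO_noVILI against 100 in WT_noVILI, and H2-Bl, another transcribed pseudogene, had 362 in KO_noVILI against 24 in WT_noVILI. Their log2 fold changes in the authors' deposited table were 4.30, 3.83 and 3.90. H2-T3, which encodes the thymus leukaemia antigen that binds CD8 alpha homodimers, had 66 reads in KO_noVILI against 8 in WT_noVILI (log2 fold change 3.01, adjusted p = 1.1e-05 in the authors' deposited table). H2-M10.2 had 34 reads in KO_noVILI against 1 in WT_noVILI, a ratio of 34 with a 95% counting interval of 5.7 to 1382 (exact binomial, counting error only). Of the thymocyte markers, Rag1, Rag2, Ptcra and Dntt each stood at 0.178 CPM or less in KO_noVILI and in WT_noVILI, and none was called; Cd1d1, which other cells also express, made up nearly all of that list's sum.

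The other called members differed less. H2-Q10, known as a class I molecule secreted by mouse liver, had 1814 reads in KO_noVILI against 402 in WT_noVILI (log2 fold change 2.17, adjusted p = 7.93e-23 in the authors' deposited table). H2-Q1 and H2-Q2 were at 1.07 and 1.33 log2 in that deposited table. H2-M3, which presents formylated bacterial peptides, had 434 reads in KO_noVILI against 190 in WT_noVILI (log2 fold change 1.19 in the authors' deposited table). H2-T23, the Qa-1 molecule seen by the natural killer receptor CD94/NKG2A, had 3715 reads in KO_noVILI against 1800 in WT_noVILI (1.05 in the authors' deposited table). H2-T24 was called at 0.53 log2 in the authors' deposited table.

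The classical genes were not called. H2-K1 had 13218 reads in KO_noVILI against 13884 in WT_noVILI, with a log2 fold change of -0.07 (adjusted p = 1) in the authors' deposited table. H2-D1 had 18480 reads in KO_noVILI against 14453 in WT_noVILI (0.35, adjusted p = 0.482 in the authors' deposited table). Of the Qa-2 group, which includes H2-Q6, H2-Q7 and H2-Q8, the log2 fold changes in the authors' deposited table were 0.27, -0.55 and 0.09, at an adjusted p of 0.867, 0.463 and 1. H2-T10, a transcribed pseudogene in this annotation, stood at 0.39 (adjusted p = 0.583 in the authors' deposited table). H2-T22, whose product is known as a ligand of gamma delta T cells, had 10 reads in KO_noVILI against 2 in WT_noVILI and was not called. Genes with large and with small differences therefore lie side by side in places: uncalled H2-T10 lies between H2-Bl and Gm7030, and uncalled H2-K1 lies next to H2-K2. Among members of known position, all from H2-T24 to H2-M10.2 except H2-T22 and H2-T10 were called.

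**Figure D2:**
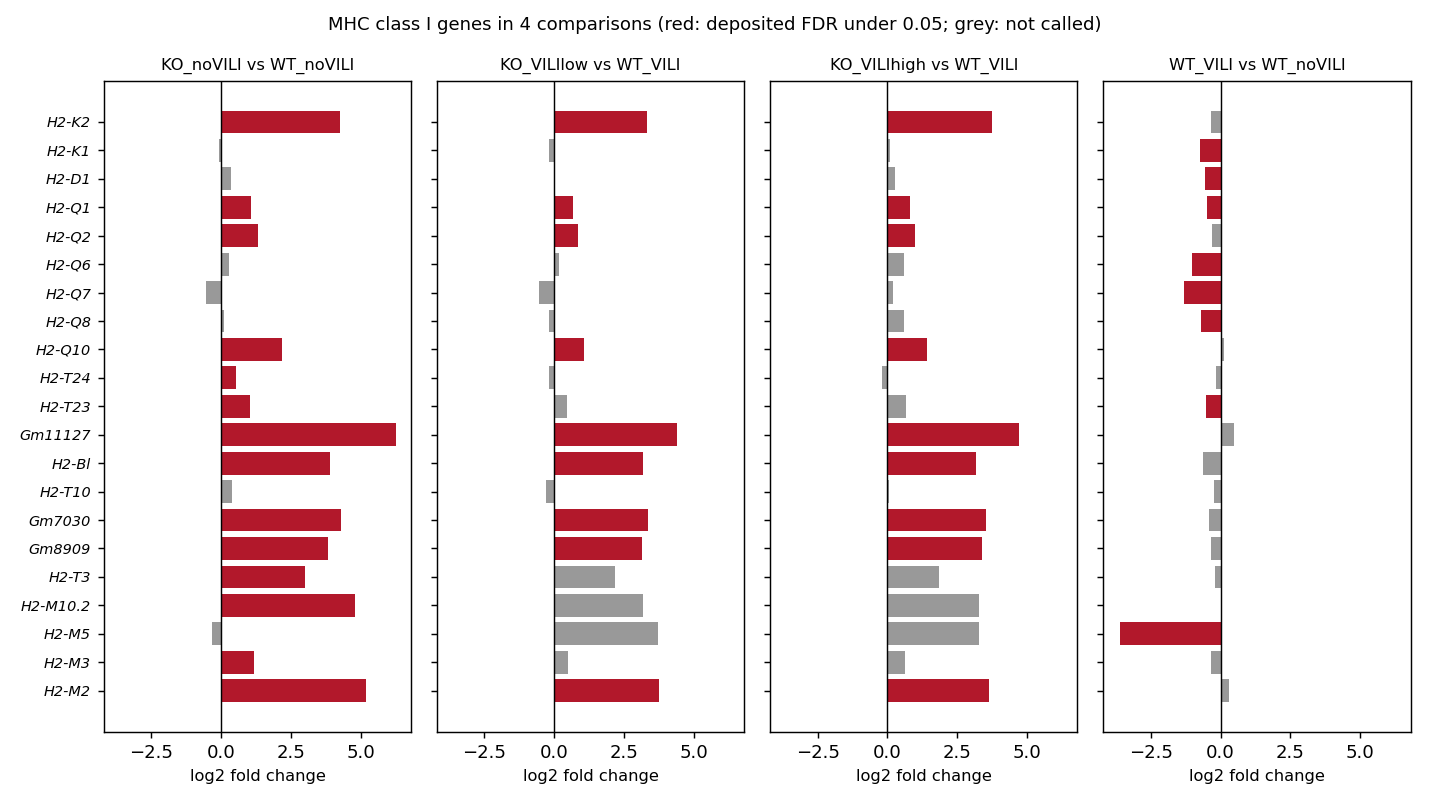
Log2 fold change of 21 class I genes in the authors' deposited tables, in their order along the chromosome (H2-Q8 placed with the Q genes), with red bars for an adjusted p under 0.05 and grey bars for genes not called. Gm11127 has the longest bar in each knockout comparison, at 6.25, 4.40 and 4.72, and the only red bars of the ventilation comparison in wild type point to lower levels.

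Many of these genes were also higher in the knockout when both genotypes were ventilated. In KO_VILIlow against WT_VILI, 9 of the 31 members were higher and none was lower in the authors' deposited table, where 0.973% of all genes were called, 0.676% as higher and 0.296% as lower. In KO_VILIhigh against WT_VILI it was again 9 higher and none lower in the authors' deposited table, with 1.56% of all genes called, 1.13% as higher and 0.435% as lower. These 9 members were the same in both comparisons and were among the 14 called without ventilation: Gm11127, Gm7030, Gm8909, H2-Bl, H2-K2, H2-M2, H2-Q1, H2-Q2 and H2-Q10. Both comparisons use the WT_VILI libraries, so their values are not independent of each other. The median over all 31 members was 0.51 in KO_VILIlow and 0.99 in KO_VILIhigh on the log2 fold change scale, against 0 over all genes in both tables.

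Gm11127 had 300 reads in KO_VILIlow against 14 in WT_VILI, and 348 in KO_VILIhigh against 13 in WT_VILI. H2-K2 had 794 reads in KO_VILIlow against 79 in WT_VILI, and 941 in KO_VILIhigh against 70 in WT_VILI. H2-M2 had 165 reads in KO_VILIlow and 154 in KO_VILIhigh, against 12 in WT_VILI in both tables. In the authors' deposited tables the log2 fold changes of these 3 genes were 4.40, 3.33 and 3.75 in KO_VILIlow and 4.72, 3.74 and 3.65 in KO_VILIhigh. H2-Q10 had 606 reads in KO_VILIlow against 292 in WT_VILI, and 671 in KO_VILIhigh against 254 in WT_VILI, with log2 fold changes of 1.05 and 1.40 in the authors' deposited tables. All 4 genes were higher than in WT_VILI in both injury classes.

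The 5 members called without ventilation but in neither ventilated comparison were H2-M3, H2-M10.2, H2-T3, H2-T23 and H2-T24. H2-T23 kept a positive value, 0.44 in KO_VILIlow (adjusted p = 0.47) and 0.65 in KO_VILIhigh (adjusted p = 0.0866) in the authors' deposited tables. H2-T3 had 28 reads in KO_VILIlow against 6 in WT_VILI, and 22 in KO_VILIhigh against 6 in WT_VILI, and the authors' deposited tables give an adjusted p of 0.071 for KO_VILIlow and of 0.305 for KO_VILIhigh. H2-M10.2 had 11 reads in KO_VILIlow and 12 in KO_VILIhigh, against 1 in WT_VILI in both tables. H2-T24 was at -0.17 in KO_VILIlow and -0.18 in KO_VILIhigh in the authors' deposited tables. Whether the genotype difference itself changed with ventilation was not tested for any member.

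Values of the unventilated and ventilated knockout comparisons can be set side by side for the 19 members with at least 20 reads over both groups of each table. Several of these pass through the knockout reads alone: Gm11127 had 14 reads in WT_noVILI and 14 in WT_VILI, and H2-M2 had 14 in WT_noVILI and 12 in WT_VILI. Since folds of KO_noVILI also chose the family, the likeness of the values is a description.

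**Figure D3:**
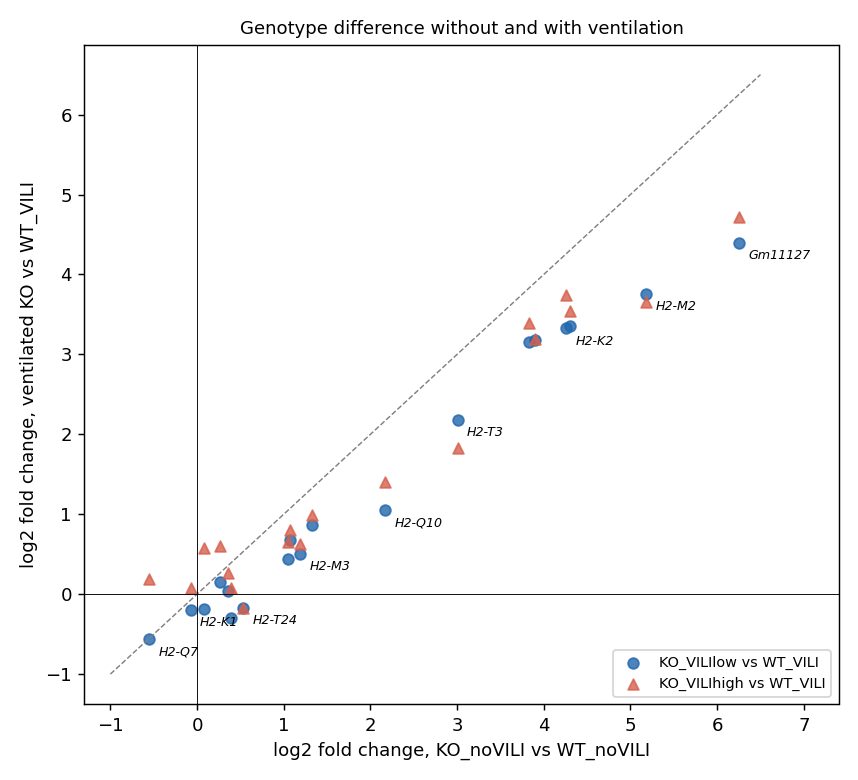
Log2 fold change of 19 class I genes without ventilation (x axis) and with ventilation (y axis), with circles for KO_VILIlow and triangles for KO_VILIhigh, both against WT_VILI, and a dashed line where both axes are equal. Gm11127 lies farthest to the right at 6.25, with 4.40 in KO_VILIlow and 4.72 in KO_VILIhigh, while H2-K1 lies near 0 on both axes. H2-T24 lies at 0.53 without ventilation, with -0.17 in KO_VILIlow and -0.18 in KO_VILIhigh.

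No class I gene was called between the high and low injury classes. Of 18 members that could be compared through their common WT_VILI libraries, none differed between KO_VILIhigh and KO_VILIlow in an approximate test with Benjamini-Hochberg adjustment (lowest adjusted p = 1), nor did any at an unadjusted p under 0.05, while 0.164% of 12799 genes were called, 0.148% as higher and 0.0156% as lower. The difference was positive for 16 of the 18, with a median of 0.23 log2 against -0.01 over all genes. H2-Q8 had the largest difference: it stood at 27.5 CPM in KO_VILIhigh and 16.2 CPM in KO_VILIlow, a log2 difference of 0.76 ± 0.41 (approximate standard error). The test counts the spread of WT_VILI although it cancels, and it found 28% of simulated differences of 1 log2 and 89% of differences of 2 log2, so smaller differences could be missed.

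Ventilation of wild type lungs went with lower levels of several class I genes. In WT_VILI against WT_noVILI, 8 of 31 members fell and none rose in the authors' deposited table, where 9.09% of all genes were called, 4.85% as higher and 4.23% as lower. The median over the 31 members was -0.23 log2, and over all genes it was 0. Members that fell were H2-K1, H2-D1, H2-Q1, H2-Q6, H2-Q7, H2-Q8, H2-T23 and H2-M5.

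H2-Q7, a Qa-2 gene, had 523 reads in WT_VILI against 1298 in WT_noVILI (log2 fold change -1.31, adjusted p = 9.15e-14 in the authors' deposited table). H2-Q6 had 644 reads in WT_VILI against 1314 in WT_noVILI (-1.03, adjusted p = 3.59e-08 in the authors' deposited table). H2-K1 had 6174 reads in WT_VILI against 10222 in WT_noVILI (-0.73, adjusted p = 4.47e-06 in the authors' deposited table). H2-D1 had 7360 reads in WT_VILI against 10867 in WT_noVILI (-0.56, adjusted p = 0.00166 in the authors' deposited table). The most abundant classical and Qa-2 genes thus went down together, by amounts between those of H2-D1 and H2-Q7.

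H2-Q8, H2-Q1 and H2-T23 had log2 fold changes of -0.71, -0.50 and -0.52 by the authors' deposited table. H2-M5 had 1 read in WT_VILI against 15 in WT_noVILI, a ratio of 0.0667 with a 95% counting interval of 0.00158 to 0.433. It had 16 reads in KO_VILIlow and 12 in KO_VILIhigh, against 1 in WT_VILI, and 16 in KO_noVILI against 20 in WT_noVILI, so WT_VILI alone stood near 0 for this gene. The members that were so much higher in the knockout did not pass here: Gm11127, H2-K2, H2-M2 and Gm8909 were at 0.49, -0.34, 0.32 and -0.35 log2 (adjusted p = 1, 0.653, 1 and 0.781), according to the authors' deposited table. H2-K2 had 99 reads in WT_VILI against 125 in WT_noVILI.

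Sex-linked transcripts separated the ventilated from the unventilated groups. Xist stood at 6.11 CPM in WT_VILI against 889 CPM in WT_noVILI, and Y-linked Ddx3y at 115 CPM in WT_VILI against 0.0783 CPM in WT_noVILI. The effect of ventilation on class I genes therefore cannot be told apart from that of sex. Xist stood at 505 CPM in KO_noVILI against 890 CPM in WT_noVILI, and Ddx3y stood at 107 CPM in KO_VILIlow and 90.3 CPM in KO_VILIhigh against 114 and 113 CPM in WT_VILI, so these transcripts did not divide the genotypes in the same way.

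No table compares ventilated with unventilated knockout lungs, and the tables were normalized separately, so only levels can be set side by side. Of all 31 members, 22 had a lower CPM in KO_VILIlow than in KO_noVILI, 2 had a higher one (H2-M5 and H2-M10.3) and 7 were at 0 in both groups. In KO_VILIhigh 22 were again lower than in KO_noVILI, 4 were higher (H2-M5, H2-M9, H2-M10.3 and H2-M10.6, of which all but H2-M5 had 1 read) and 5 were at 0 in both groups. Within wild type, 18 were lower in WT_VILI than in WT_noVILI, 3 were higher (Gm11127, H2-M2 and H2-Q10), 1 was equal and 9 were at 0 in both groups. H2-K2 stood at 67.0 CPM in KO_VILIlow, 91.0 CPM in KO_VILIhigh and 185 CPM in KO_noVILI. H2-D1 stood at 622 CPM in KO_VILIlow, 732 CPM in KO_VILIhigh and 1099 CPM in KO_noVILI. H2-M5 stood at 1.35 CPM in KO_VILIlow, 1.16 CPM in KO_VILIhigh and 0.952 CPM in KO_noVILI. These H2-M5 levels rest on only 16 reads in KO_VILIlow, 12 in KO_VILIhigh and 16 in KO_noVILI, from libraries of different size. With so few reads, no rise is shown. These differences in level were not tested, and the share of all genes that were lower between the same groups was not worked out. The counts therefore describe levels only and cannot be read as particular to class I genes.

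Some partners of class I molecules were also called. Of 21 genes of the class I presentation pathway outside the heavy chains, 3 rose and none fell in KO_noVILI against WT_noVILI in the authors' deposited table. Among all genes there, 1.45% were called as higher and 1.92% as lower. The 3 were B2m, the light chain, at 0.66, the peptide loading chaperone Calr at 0.60 and the immunoproteasome subunit Psmb9 at 0.90. Their adjusted p were 0.0336, 0.00141 and 0.0373 in the authors' deposited table. In that deposited table the peptide transporter genes Tap1 and Tap2 were at 0.18 and -0.01, Psmb8 at 0.43, and Nlrc5, the transactivator of class I genes, at 0.75 (adjusted p = 0.0926).

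In WT_VILI against WT_noVILI, 7 of these 21 genes fell and none rose in the authors' deposited table, beside 4.23% of all genes called as lower. Among them were the transcription factor Irf1 (-0.69), Psmb8 (-0.80), Nlrc5 (-0.79), B2m (-0.59) and Tap1 (-0.58), all from the authors' deposited table. B2m stood at 434 CPM in WT_VILI against 653 CPM in WT_noVILI. None of the 21 was called in KO_VILIlow against WT_VILI, and Irf1 alone rose in KO_VILIhigh against WT_VILI, by 0.83 log2 (adjusted p = 0.0126) in the authors' deposited tables. Among all genes, 0.973% were called in KO_VILIlow and 1.56% in KO_VILIhigh, 1.13% as higher.

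Interferon-induced genes outside antigen presentation were called in the same directions. Of 32 genes, 12 rose and none fell in KO_noVILI against WT_noVILI, beside 1.45% of all genes called as higher, in the authors' deposited table. In WT_VILI against WT_noVILI 11 fell and none rose, beside 4.23% of all genes called as lower, in the authors' deposited table. The guanylate-binding protein gene Gbp4 rose by 2.39 log2 in KO_noVILI and fell by 0.89 log2 in WT_VILI, and the immunity-related GTPase genes Igtp and Irgm2 were at 1.38 and 1.22 in KO_noVILI and at -0.88 and -1.18 in WT_VILI, in the authors' deposited tables. In the authors' deposited tables of the ventilated knockouts, none of the 32 was called in KO_VILIlow. In KO_VILIhigh 2 rose, Gbp4 at 1.21 and Rsad2 at 1.71. The 9 class I genes called in each of these comparisons belong to a family chosen for its knockout values. The counts of class I and interferon-induced genes therefore cannot be weighed against each other. Among all genes, 0.973% were called in KO_VILIlow and 1.56% in KO_VILIhigh. The part of interferon signalling in the class I values was not tested.

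**Figure D4:**
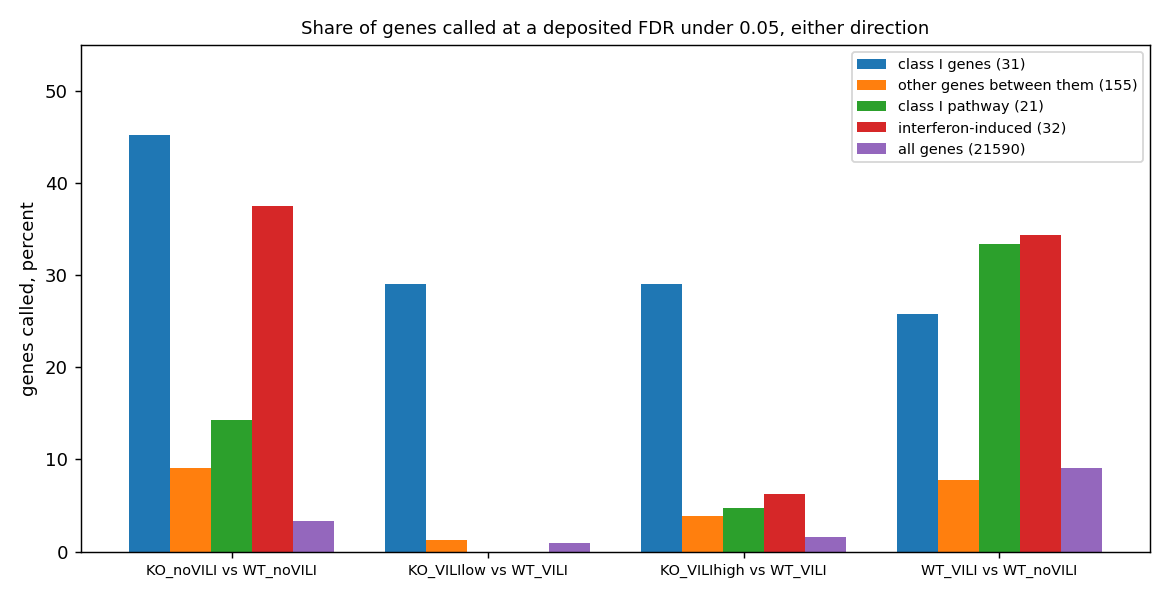
Share of genes called in either direction at an adjusted p under 0.05 in the authors' deposited tables, as percent of each set, for 31 class I genes, 155 other genes lying between them, 21 pathway genes, 32 interferon-induced genes and all 21590 genes. In KO_VILIlow against WT_VILI the class I share is 29% and the pathway and interferon-induced shares are 0%, beside 0.973% of all genes. The class I family was chosen for its knockout values, so its shares in the knockout comparisons are a description and no test against the other sets.

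Of 12 measured class I-like genes encoded outside the H2 region, none was called in any of the 3 knockout comparisons of the authors' deposited tables. Among all genes, 3.36% were called in KO_noVILI, 0.973% in KO_VILIlow and 1.56% in KO_VILIhigh, and 4 of the 12 had 0 reads in all 4 tables. A list of 12 without a call therefore stands near the share of all genes. Azgp1 and Mr1, which presents vitamin B metabolites, fell in WT_VILI against WT_noVILI, with log2 fold changes of -2.25 and -0.50 in the authors' deposited table. Among all genes there, 4.23% were called as lower. Of 21 receptors for class I molecules, 1 was called in the 4 tables: Klra3, a Ly49 receptor gene of natural killer cells, rose by 3.60 log2 in KO_noVILI against WT_noVILI in the authors' deposited table, with 1.61 CPM in KO_noVILI against 0.119 CPM in WT_noVILI. With 3.36% of all genes called in that comparison, 1 call among 21 stands near the share of all genes.

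Some genes that are not class I genes but lie between H2-K2 and H2-M2 were called as well. Of 155 such genes, 6 were higher and 8 lower in KO_noVILI against WT_noVILI in the authors' deposited table, which is 9.03% beside 3.36% of all genes. Among those whose mean log2 CPM was 1 or more, the largest differences were in H2-Ob, a class II chain of B cells, at -2.29, the heat shock gene Hspa1b at 2.08, and the class II gene H2-Eb2 at -1.99, in the authors' deposited table. H2-Ob had 128 reads in KO_noVILI against 626 in WT_noVILI, 67 in KO_VILIlow against 361 in WT_VILI, and 147 in KO_VILIhigh against 315 in WT_VILI. In KO_VILIlow against WT_VILI 2 of the 155 (1.29% beside 0.973% of all genes) were called, H2-Ob (-2.43) and the partner chain gene H2-Oa (-1.52), in the authors' deposited table. In KO_VILIhigh against WT_VILI 4 were higher and 2 lower (3.87% beside 1.56% of all genes), led by Tnf (2.01), Hspa1b (1.46) and the stress response gene Ier3 (1.37), in the authors' deposited table. In WT_VILI against WT_noVILI 7 were higher and 5 lower (7.74%, below the 9.09% of all genes), led by Tnf (3.27), Ly6g6c (1.78) and Gm8801 (1.60), in the authors' deposited table. Of the 9 class II genes measured, H2-Oa, H2-Ob and H2-Eb2 were called in at least 1 knockout comparison, and the other 6 in none. Strain-derived differences at H2, which no file used here records, were not tested.

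Markers of several cell types were called in some of these comparisons. Among all genes, 3.36% were called in KO_noVILI, 0.973% in KO_VILIlow, 1.56% in KO_VILIhigh and 9.09% in WT_VILI. A single call in a short list does not by itself show a change of that cell type. All 7 B cell markers were lower in KO_noVILI (summed level 53.5 CPM against 154 CPM in WT_noVILI) and 6 of 7 in KO_VILIlow (31.8 CPM against 89.9 CPM in WT_VILI), while none was called in KO_VILIhigh (95.8 CPM against 90.6 CPM in WT_VILI), in the authors' deposited tables. The part of these markers in the class I values was not tested. Of 6 natural killer cell markers 3 rose in KO_noVILI, and these were the only 3 with a positive log2 fold change there. The 6 summed to 53.5 CPM in KO_noVILI against 19.99 CPM in WT_noVILI. None of the 6 was called in KO_VILIlow (11.9 CPM against 17.9 CPM in WT_VILI) or KO_VILIhigh (20.6 CPM against 18.4 CPM in WT_VILI). All 5 cardiac muscle markers were lower in KO_noVILI (250.02 CPM against 636 CPM in WT_noVILI), 4 of 5 were higher in KO_VILIlow (1010.4 CPM against 422 CPM in WT_VILI), and none was called in KO_VILIhigh (683 CPM against 417 CPM in WT_VILI). Of 4 plasma cell markers, 1 was higher in KO_noVILI (789 CPM against 588 CPM in WT_noVILI), 1 in KO_VILIlow (963 CPM against 694 CPM in WT_VILI) and 2 in KO_VILIhigh (1029 CPM against 683 CPM in WT_VILI). Of 6 alveolar macrophage markers, 1 was higher in KO_noVILI (435 CPM against 355 CPM in WT_noVILI), 1 in KO_VILIlow (388 CPM against 213 CPM in WT_VILI) and 2 in KO_VILIhigh (365 CPM against 213 CPM in WT_VILI), and 1 was lower in WT_VILI (218 CPM against 361 CPM in WT_noVILI). None of the 7 T cell markers was called in any table, with 126 CPM in KO_noVILI against 88.8 CPM in WT_noVILI. In WT_VILI all 6 neutrophil markers rose (590 CPM against 152 CPM in WT_noVILI). Of the 7 B cell markers, 3 were lower there (98.5 CPM against 156 CPM in WT_noVILI). The part of neutrophil and B cell markers in the lower class I levels of WT_VILI was not tested. Endothelial markers summed to 3979 CPM in KO_noVILI against 3471 CPM in WT_noVILI, and to 3274 CPM in WT_VILI against 3429 CPM in WT_noVILI. Lung identity was plain from type 2 cell markers, which summed to 11990 CPM in KO_noVILI and 10248 CPM in WT_noVILI.

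Class I transcripts resemble each other, and the authors' read assignment is not given in the sources used here. In the GENCODE transcripts of 29 members, a median of 12.4% of all 50-base windows also occurred in a transcript of another gene. Gm11127 and Gm7030 had the largest shares, 63.8% and 60.8%, so their values are uncertain. Gm11127 shared 38.2% of its windows with Gm7030 and 31.9% with genes that are not members, and Gm7030 shared 57.3% with Gm11127 and 9.72% with genes that are not members. H2-T10 and H2-T22 shared 31.7% and 31.2% of their windows with each other, and H2-Q6 shared 32% with other genes. Among members with few shared windows, H2-M2 (1.61%), H2-T3 (0.894%), H2-M3 (0.576%), H2-M5 (0.886%) and H2-T24 (3.17%) stood at 5.18, 3.01, 1.19, -0.32 and 0.53 log2 in KO_noVILI against WT_noVILI in the authors' deposited table. The part of shared reads in the folds was not tested. The windows come from the C57BL/6J reference, and reads of another haplotype could map differently, which was not tested.

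**Figure D5:**
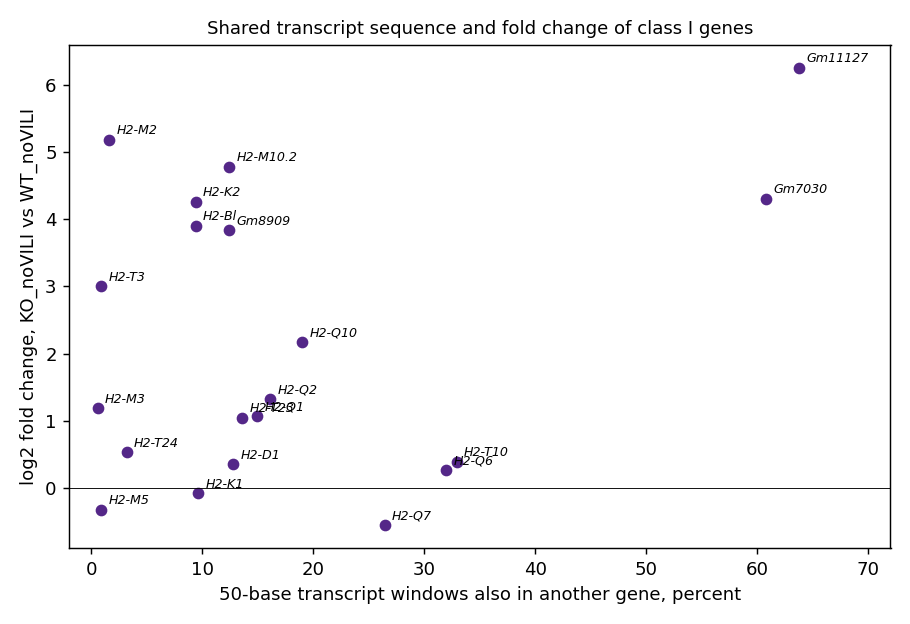
Share of 50-base transcript windows that also occur in another gene (x axis, percent) and log2 fold change in KO_noVILI against WT_noVILI in the authors' deposited table (y axis) for 20 class I genes. Gm11127 lies at 63.8% and 6.25, H2-M2 at 1.61% and 5.18, and H2-M5 at 0.886% and -0.32.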

How the data were processed

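RNA from whole lungs was sequenced. Bowtie 1.1.2, the build mm9, R 3.0.1 and edgeR are named per the submitters' processing notes as the authors' tools; counting and filters are not given in the sources used here. The deposited columns hold log2 fold changes and mean log2 CPM, and the deposited p-value and FDR of each gene come from the authors' edgeR test. Calls used an FDR under 0.05. Members and gene lists were chosen with earlier results of these data known.

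Both ventilated knockout tables were read against WT_VILI, as their rebuilt reference levels lay 0.0696 and 0.0555 log2 (median) from WT_VILI and 0.239 and 0.236 from WT_noVILI; the labels list WT_noVILI, and the match was not exact. Group reads were recovered by removing 2 prior reads per library and 0.125 per group mean. These settings gave whole numbers for 100 percent of genes. Reads simulated under the same settings came back exactly, which checks the arithmetic only and not whether the deposited values follow these settings. Intervals cover counting error only and treat normalized reads as counts. KO_VILIhigh minus KO_VILIlow used standard errors implied by the deposited p-values, Benjamini-Hochberg adjusted over genes with mean log2 CPM of 1 or more. Motifs were searched in the 250 bases before each start, not in the planned windows that run into transcripts. All members could be named; of each list up to 3 called genes of smallest p per table and 7 fixed pathway genes; of genes between members up to 3 per table. Klra3, H2-Oa, Rsad2 and the sex-linked Xist and Ddx3y are named with their counts; the last 2 were chosen after their values were seen. Gene order came from RefSeq (GRCm38.p6, not mm9) and was known for 29 members. Python 3.11.15, pandas 2.3.3, numpy 2.4.6, scipy 1.17.1 and matplotlib 3.10.9 were used.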

Additional observations from a re-analysis of the deposited data

How the results depend on the processing

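No paired analysis was possible because the tables hold no values per library, and for the same reason no library could be left out. The counts of class I genes called kept within 1.5 times of the reported ones under an FDR of 0.01, a new Benjamini-Hochberg adjustment and without predicted genes. Under Bonferroni adjustment, the members lower in WT_VILI came to 3. Medians over all 31 members were 1.05, -0.23 and 0.51 for KO_noVILI, WT_VILI and KO_VILIlow, beside 1.19, -0.38 and 0.77 over members whose mean log2 CPM was 0 or more; the cause was not tested. Over members at 1 or more, the medians were 0.59 for KO_VILIlow and 0.73 for KO_VILIhigh. Class I pathway genes higher in KO_noVILI came to 1 at an FDR of 0.01 and 0 under Bonferroni, those lower in WT_VILI to 3 under Bonferroni, and the 1 higher in KO_VILIhigh to 0 under both. Interferon-induced genes higher in KO_noVILI came to 7 at an FDR of 0.01 and 1 under Bonferroni, those lower in WT_VILI to 7 under Bonferroni, and those higher in KO_VILIhigh to 1 under both. Class I-like genes lower in WT_VILI came to 1 at an FDR of 0.01 and 0 under Bonferroni, and the receptor higher in KO_noVILI to 0 under Bonferroni. Class II genes lower in KO_VILIlow came to 1 under both, and the 1 lower in KO_VILIhigh to 0 under Bonferroni. No result reversed. H2-M10.2 rests on 1 read in each wild type group, and H2-M5 on 1 read in WT_VILI.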
